A study of Mus musculus with 2 samples.

Results

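Macrophage nuclei were examined in single-nucleus RNA sequencing of mouse quadriceps, a thigh muscle that extends the knee. A nucleus was taken as a macrophage nucleus when it had at least 200 detected genes and at least 2 unique molecular identifiers (UMIs, each standing for 1 captured RNA molecule) summed over F13a1, Mrc1, Csf1r, Adgre1, Cd163, C1qa and C1qb. That sum also had to exceed the sum over Pdgfra, Dcn, Col1a2, Fbn1, Pecam1, Cdh5, Adipoq, Plin1, Pparg and Acvr1c, genes of fibro-adipogenic, endothelial and fat cells. The rule found 208 of 18040 nuclei, 137 of 7766 from muscle without Ptrf (KO) and 71 of 10274 from wild-type (WT) muscle. Because the members were chosen by their own counts, the levels of the rule genes and every contrast with the other nuclei are given as descriptions.

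The KO mice lacked Ptrf, a gene now named Cavin1; its protein coats caveolae, small pits of the plasma membrane. The WT mice were unaltered at this gene, and both genotypes were C57BL/6N mice aged 3 months. The sources used here do not say how the null allele was made, how many mice gave each library or of which sex they were. Each genotype was represented by 1 library, so no difference between KO and WT has a replicate check and no test between genotypes was made. Intervals are exact 95% intervals that cover counting error only.

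Macrophages are phagocytes that live between muscle fibres and around their vessels, where they clear debris, present antigen and release factors that act on fibres, fibroblasts and satellite cells. Resident macrophages of muscle commonly carry the scavenger receptors Mrc1 and Cd163, and injury adds cells that arrive from blood as monocytes and change their transcripts as they mature. Macrophages depend on signals through Csf1r, the receptor of Csf1 and Il34, and their identity depends on the transcription factor Spi1 (PU.1).

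The KO matrix held 16052317 UMIs over 7766 barcodes and the WT matrix held 9746980 UMIs over 10280 barcodes. Macrophage nuclei had a median of 935 UMIs in KO (range 511 to 9363) and 686 UMIs in WT (range 411 to 4210). Their UMIs summed to 204527 in KO and 73574 in WT. Cavin1 itself had 2 UMIs over all KO nuclei and 75 UMIs over all WT nuclei; within macrophage nuclei it had 0 UMIs in KO and 1 UMI in WT. Xist, transcribed in female cells, and Y-linked transcripts both occurred in the KO library. Of the KO macrophage nuclei, 38 held only Xist, 33 only Y-linked UMIs, 2 both and 64 neither, whereas 0 WT macrophage nuclei held Xist and 17 held Y-linked UMIs. Genotype and the mix of sexes can therefore be told apart only in the marked nuclei. The libraries shared 24 barcodes among all their nuclei, and none of these was a macrophage nucleus in both.

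Marker counts of single nuclei describe the members. They cannot check the label, because the same 7 genes chose the nuclei. At least 2 of the 7 rule markers were detected in 112 KO macrophage nuclei (81.8%) and in 57 WT macrophage nuclei (80.3%). F13a1, the A subunit of coagulation factor XIII, was detected in 73.0% of KO and 74.6% of WT macrophage nuclei. In muscle nuclei, which should lack it, F13a1 was detected in 0.424% of KO nuclei at a median depth of 1847 UMIs and in 1.11% of WT nuclei at a median depth of 710 UMIs. Mrc1, the mannose receptor, was detected in 62.0% of KO and 67.6% of WT macrophage nuclei, against 0.714% and 0.806% of KO and WT muscle nuclei. Muscle nuclei exclude, by definition, any nucleus that met the macrophage rule. At the edge of the rule, 37 KO members (27.0%) and 27 WT members (38.0%) held exactly 2 marker UMIs, while 160 other KO nuclei and 335 other WT nuclei held exactly 1. A further 17 KO nuclei and 4 WT nuclei had at least 2 marker UMIs but no more than their other-lineage sum.

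Muscle RNA was present in the members. Ttn, the giant sarcomere protein gene, made up 2.37% of UMIs in KO and 3.62% in WT macrophage nuclei, against 5.09% in KO and 7.18% in WT muscle nuclei. Myonuclear markers exceeded 5% of UMIs in 23 KO (16.8%) and 31 WT (43.7%) macrophage nuclei. Some markers of other blood lineages were at 0 in both libraries. Among them were Cd3e and Cd3g of T cells, Cd79a, Ms4a1 and Pax5 of B cells, and S100a8, S100a9, Ly6g and Cxcr2 of neutrophils. All 6 mast cell markers were at 0 too. Other markers were detected. Csf3r, the remaining neutrophil marker, had 16 UMIs in KO and 3 UMIs in WT. T or NK cell markers summed to 3 UMIs in KO and 5 UMIs in WT. Dendritic cell markers summed to 18 and 5 UMIs in KO and WT, and B cell markers to 150 and 58 UMIs. Bank1, an adaptor best known from B cells, still had 68 UMIs in KO and 35 UMIs in WT macrophage nuclei. Lymphatic endothelial markers summed to 152 CPM (UMIs of a gene per 1000000 UMIs of the class) in KO and 54.4 CPM in WT, and a UMI of Mmrn1, Prox1 or Flt4 was found in 10 KO members and 1 WT member.

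Macrophage nuclei made up a larger share of the KO library than of the WT library. They were 1.76% of KO nuclei (1.48 to 2.08) and 0.691% of WT nuclei (0.540 to 0.871), a difference of 1.07 percentage points and a ratio of 2.55. After each nucleus was thinned to 500 UMIs, with shallower nuclei left out, the shares were 1.24% in KO (96 of 7766) and 0.450% in WT (37 of 8219). With at most 5% myonuclear marker UMIs allowed, 1.47% of KO and 0.389% of WT nuclei remained in the class. Among nuclei with only Y-linked UMIs, macrophage nuclei were 1.06% in KO (33 of 3103) and 0.625% in WT (17 of 2721), with overlapping intervals. Among KO nuclei with only Xist they were 2.49% (38 of 1527). The Y-marked KO macrophage nuclei had a median of 2422 UMIs and the Xist-marked ones 976.5 UMIs. Shares among marked nuclei are therefore not matched for depth. A larger KO share was not particular to macrophage nuclei. Fibro-adipogenic nuclei were 402 of 7766 in KO and 152 of 10274 in WT. Muscle nuclei were 5185 in KO and 9425 in WT, so the other nuclei differed in make-up between the libraries. More macrophages and fewer nuclei of other types in a library give the same share, and the 2 cannot be told apart here.

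**Figure D1:**
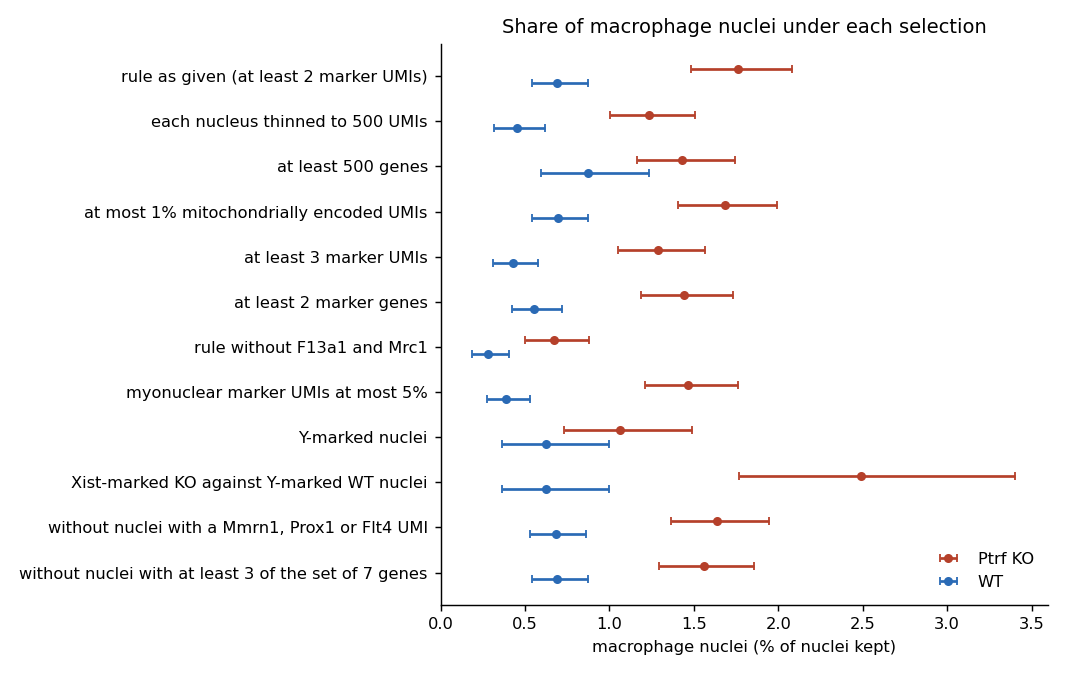
Share of macrophage nuclei (x axis, percent of the nuclei kept) under the rule and each other selection (y axis), with the KO library drawn above the WT library in each row. Points are shares and bars exact 95% binomial intervals; KO lay above WT in every selection, and the intervals overlapped with at least 500 genes and among Y-marked nuclei.

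Genes that the rule did not use showed what else these nuclei transcribe. The 20 leading genes had the highest lower bound of their ratio to all other nuclei, taken in the library where that bound was smaller, and they included scavenging, immune signalling and antigen presentation genes. Mctp1, a calcium-binding membrane protein gene, headed them, with 389 UMIs in KO and 242 UMIs in WT macrophage nuclei, levels of 1902 and 3289 CPM. In all other nuclei Mctp1 stood at 23.1 CPM in KO and 42.9 CPM in WT. Clec10a, a lectin of resident macrophages and dendritic cells, had 156 CPM in KO and 204 CPM in WT macrophage nuclei, against 1.33 and 1.86 CPM in the other nuclei of KO and WT. Nrros, which holds latent TGF-beta at the surface of myeloid cells, had 499 CPM in KO and 530 CPM in WT.

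Signalling genes of myeloid cells stood beside them. Inpp5d encodes the lipid phosphatase SHIP1 and had 308 CPM in KO and 367 CPM in WT macrophage nuclei. The kinase gene Syk had 303 CPM in KO and 313 CPM in WT, and Tnfrsf1b, a TNF receptor, 108 CPM in KO and 136 CPM in WT. Stab1, a scavenger receptor, stood at 313 CPM in KO and 394 CPM in WT, and Dab2, an endocytic adaptor, at 552 CPM in KO and 530 CPM in WT. For antigen presentation, Cd74, the invariant chain of class II molecules, had 132 CPM in KO and 136 CPM in WT, and the costimulatory receptor Cd86 had 156 and 231 CPM in KO and WT. Of the 20 genes, 17 had a KO over WT log2 ratio below 0, against 48.2% of 822 genes at least 2 times higher in macrophage nuclei than in other nuclei in the library where they were higher. The 20 were chosen by the smaller of the bounds from both libraries, so this count is not independent of the choice.

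**Figure D2:**
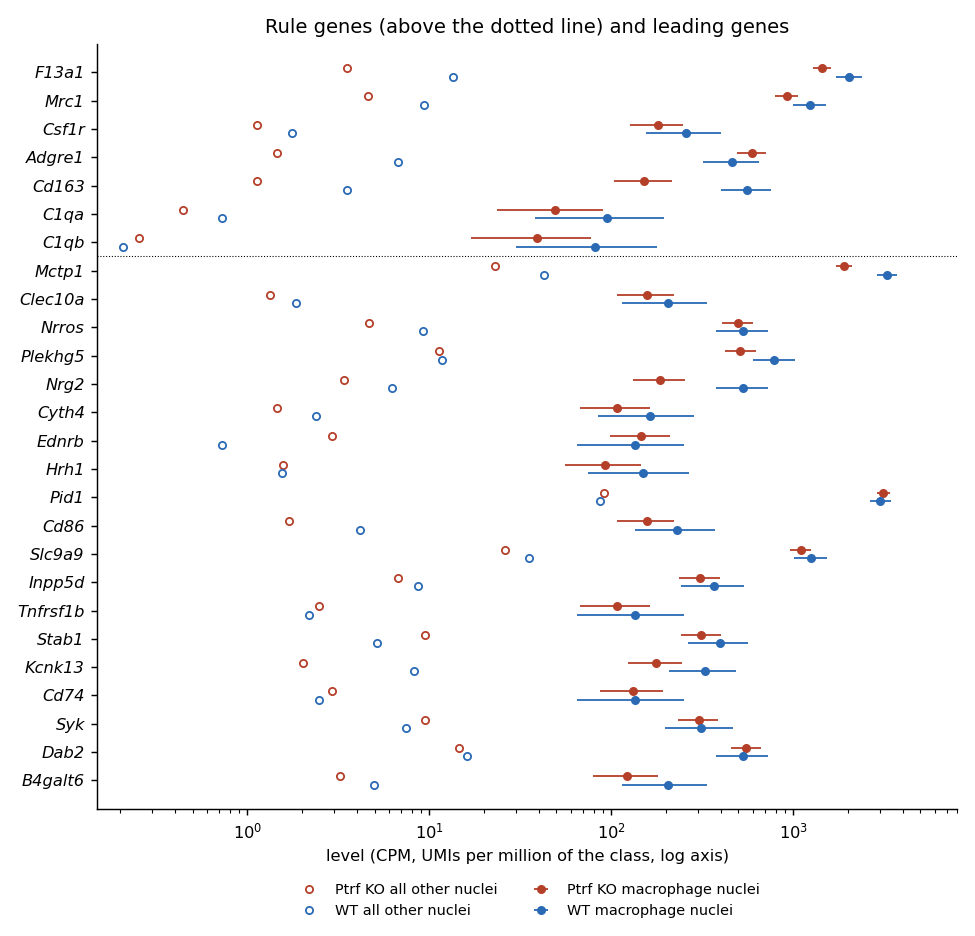
Level of the 7 rule genes and 19 of the 20 leading genes (y axis) in CPM on a log axis (x axis), in macrophage nuclei (filled points with exact 95% Poisson bars) and in all other nuclei (open points), KO above WT for each gene. Every filled point lies to the right of the open points of its gene, as the way these genes were chosen requires.

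Promoter letters are shown for 3 of these genes, because Spi1 binds purine-rich sites and is the best known regulator of the class. Spi1 had 27 UMIs in KO (132 CPM) and 8 UMIs in WT (109 CPM) macrophage nuclei, against 1.89 and 2.17 CPM in the other nuclei of KO and WT. The motif searched was GAGGAAG on either strand, in RefSeq windows of build GRCm38.p6 that run from 250 bases before to 50 bases after each gene's start. It was present for 12 of the 35 core identity genes that had a window (34.3%), for 4 of 14 leading genes (28.6%) and for 15.4% of all 27025 genes. The capitals mark the motif, written 5′ to 3′ along the gene's strand, in chr13:37050278-37050337 (minus strand), chr2:14229351-14229410 (plus strand, motif on the opposite strand) and chr1:87620265-87620324 (plus strand). A match shows letters only and was not tested for binding.
F13a1: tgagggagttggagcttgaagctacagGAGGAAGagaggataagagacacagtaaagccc
Mrc1: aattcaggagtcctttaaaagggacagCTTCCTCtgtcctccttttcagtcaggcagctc
Inpp5d: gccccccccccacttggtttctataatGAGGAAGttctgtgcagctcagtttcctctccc

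The rule genes chose the members, so their levels in KO and WT are a description only. Cd163, the haptoglobin and haemoglobin receptor, (chr6:124304656-124330527, plus strand, GRCm38) had 31 UMIs in KO and 41 UMIs in WT, levels of 152 and 557 CPM. It was detected in 18.2% of KO and 33.8% of WT macrophage nuclei, and in 8.76% and 20.8% of KO and WT after thinning to 500 UMIs, which left 137 KO and 53 WT nuclei deep enough. F13a1 had 1447 CPM in KO and 2039 CPM in WT, and Mrc1 had 924 CPM in KO and 1237 CPM in WT. Without the 16 KO nuclei described below, all of which lack Mrc1, its KO level was 1049 CPM. Adgre1, the pan-macrophage receptor F4/80, had 592 CPM in KO and 462 CPM in WT, and Csf1r had 181 CPM in KO and 258 CPM in WT. C1qa and C1qb, chains of complement C1q, held at most 10 UMIs in either library.

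Across all genes, 2697 had at least 20 UMIs over the macrophage nuclei of both libraries. With 0.5 UMI added to each sum, 350 of them (13%) were more than 2-fold higher in KO and 115 (4.26%) more than 2-fold lower. The median log2 ratio of these genes was 0.20, and with ratios centred on it 253 genes were past 2-fold higher and 191 past 2-fold lower, so that the share of higher genes was 57.0% in place of 75.3%. Ratios below are uncentred. At the minimum of 10 UMIs used for gene lists, 721 of 4552 genes (15.8%) were past 2-fold higher and 339 (7.45%) past 2-fold lower, with a median of 0.17.

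The genes highest in KO encoded matrix, adhesion and lipid-carrying proteins. They were ranked by the edge of their interval closest to an equal level, among 822 genes at least 2 times higher in macrophage nuclei than in all other nuclei, in the library where they were higher. A gene could enter through the library where it was high alone, so the ranking is a description. Fn1 and Tgfb2, for example, had 0 UMIs in WT macrophage nuclei and 8.17 and 80.7 CPM in the other WT nuclei. Fn1, the gene of fibronectin, a matrix protein that monocyte-derived cells also make, had 86 UMIs in 21 KO nuclei and 0 UMIs in WT, at least 10.3-fold higher with WT set to a floor of 3 UMIs. The gene spans chr1:71585520-71653200 on the minus strand of GRCm38 (GENCODE M21). In fibro-adipogenic nuclei, by contrast, Fn1 stood at 148 CPM in KO and 166 CPM in WT. Cd44, the hyaluronan receptor, had 65 UMIs in KO and 2 UMIs in WT, 318 and 27.2 CPM, with a log2 ratio of 3.24 (1.64 to 6.62). It was detected in 24.8% of KO and 1.41% of WT macrophage nuclei, and in 1.52% and 0.477% of KO and WT muscle nuclei.

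Apoe, a carrier of lipids, had 74 UMIs in KO and 3 UMIs in WT (log2 ratio 2.94, 1.55 to 5.46). Plxdc2, a plexin-domain membrane protein gene, had 271 UMIs in KO and 17 UMIs in WT, 1325 and 231 CPM (log2 ratio 2.48, 1.81 to 3.32). Ltbp1, which tethers latent TGF-beta to matrix, had 176 UMIs in KO and 7 UMIs in WT (log2 ratio 3.08, 2.10 to 4.51). Dennd4a had 83 UMIs in KO and 3 in WT (log2 ratio 3.10), and the receptor kinase gene Grk5 had 122 in KO and 13 in WT (1.71). Prg4, the gene of lubricin, had 25 UMIs and the lipoxygenase gene Alox15 had 22 UMIs in KO, against 0 UMIs of each in WT, at least 3.00-fold and 2.64-fold higher.

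Some of these genes were also higher over the pooled other nuclei of the KO library, whose make-up differed from that of WT. Outside the macrophages, Plxdc2 stood at 214 CPM in KO and 84.3 CPM in WT, Ltbp1 at 132 CPM in KO and 54.0 CPM in WT, and Dennd4a at 50.5 CPM in KO and 23.0 CPM in WT. Cd44 stood there at 23.2 CPM in KO and 6.82 CPM in WT (log2 ratio 1.76, 1.39 to 2.17), and Grk5 at 70.7 CPM in KO and 31.0 CPM in WT (1.19). In muscle nuclei alone, Ltbp1 (118 and 41.4 CPM in KO and WT) and Cd44 (11.7 and 5.31 CPM) were higher in KO. Plxdc2 (30.6 and 46.0 CPM) and Grk5 (10.1 and 20.8 CPM) were lower there, and Dennd4a was nearly level (18.1 and 18.8 CPM). In fibro-adipogenic nuclei Plxdc2, Grk5 and Dennd4a were higher in KO (log2 ratios 1.23, 0.62 and 1.12). The part played by the make-up was not tested. Tgfb2 had 56 UMIs in KO and 0 UMIs in WT macrophage nuclei. It was detected in 16.8% of KO macrophage nuclei and in 19.3% of the deeper KO muscle nuclei. After thinning these shares were 8.76% (4.61 to 14.8) and 5.79%. Of the 56 UMIs, 33 lay in the 16 KO nuclei described below, where Tgfb2 stood at 1357 CPM. In the other 121 KO macrophage nuclei it stood at 128 CPM, and in KO muscle nuclei at 128 CPM. Its level in those 121 nuclei is therefore not separated from background. Ldb2 had 31 UMIs in KO and 0 in WT. It overlaps 9 other genes on its own strand and stood at 599 CPM in KO and 76.2 CPM in WT fibro-adipogenic nuclei.

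**Figure D3:**
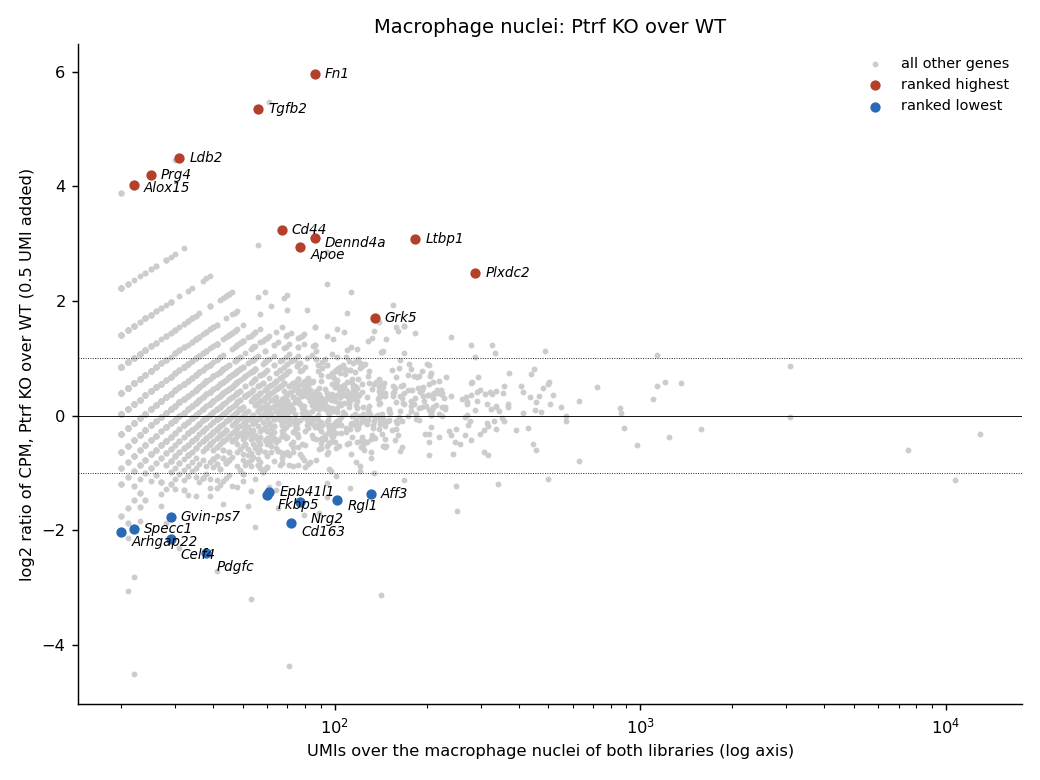
Log2 ratio of CPM, KO over WT, in macrophage nuclei (y axis, 0.5 UMI added) against the UMIs of each gene over both libraries (x axis, log scale), for 2697 genes. Red points are 11 of the 12 genes ranked highest and blue points 11 of the 12 ranked lowest; dotted lines mark 2-fold, and Fn1, with 86 UMIs in KO and 0 in WT, lies farthest up.

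Several of the highest genes were detected together in the same KO nuclei. A set of 7 genes was chosen after their values were seen: Fn1, Thbs1, Emilin2, Lyz2, Prg4, Alox15 and Saa3. At least 3 of the 7 were detected in 16 of 137 KO macrophage nuclei (11.7%) and in 0 of 71 WT macrophage nuclei. The choice of genes nearly fixed this WT count. In WT macrophage nuclei Fn1, Prg4, Alox15 and Saa3 had 0 UMIs, Thbs1 and Emilin2 1 UMI each and Lyz2 2 UMIs. The contrast is therefore a description and not a measured difference between genotypes. Among all other nuclei, 9 of 7629 in KO and 1 of 10203 in WT passed the same mark, and 8 of these 9 held exactly 1 macrophage marker UMI. Fibro-adipogenic nuclei gave 0 of 402 in KO and 0 of 152 in WT. The 16 nuclei had a median of 1169 UMIs; 1 carried only Xist, 4 only Y-linked UMIs and 10 neither.

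These 16 nuclei differed from the other 121 KO members in genes outside the 7. Every member had to hold rule gene UMIs, and of those genes Adgre1 was detected in all 16 and F13a1 in 10, while Mrc1 and Cd163, and beyond the rule Stab1, Clec10a, Cd74 and H2-Aa each had 0 UMIs in them. In the other 121 nuclei Mrc1 had 189 UMIs, Stab1 64, Clec10a 32, Cd74 27 and H2-Aa 23. For Cd74 and H2-Aa the interval of the ratio between the 16 and the 121 included no difference. Ltbp1 was detected in 16 of the 16 and in 13 of the 121, and Plxdc2 in 15 and in 28. Apoe was detected in 12 of the 16 and in 17 of the 121. The scavenger receptor gene Msr1 had 26 UMIs in the 16 and 13 UMIs in the 121, and the integrin gene Itga6 had 26 and 5 UMIs. Rbpj, the Notch effector, was lower in the 16, at 576 CPM, than in the 121, at 3496 CPM. Alox15 and Prg4 are known in mice from resident macrophages of the body cavities; Gata6, the transcription factor of those cells, had 1 UMI in the 16, 2 UMIs in the 121 and 0 UMIs in WT.

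**Figure D4:**
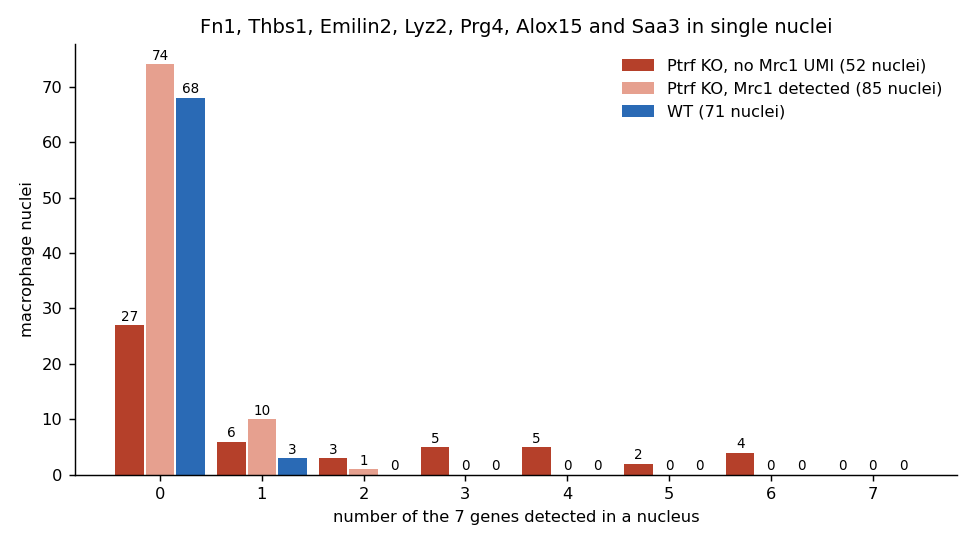
Number of macrophage nuclei (y axis) by how many of Fn1, Thbs1, Emilin2, Lyz2, Prg4, Alox15 and Saa3 were detected in the nucleus (x axis), for KO nuclei without Mrc1, KO nuclei with Mrc1 and WT nuclei. The 16 nuclei with 3 or more of the 7 genes are all KO nuclei without an Mrc1 UMI.

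With the 16 nuclei left out, an alternative added after the values were seen, part of the KO and WT difference was smaller. Macrophage nuclei were then 1.56% of KO nuclei, still against 0.691% of WT nuclei. The 16 were chosen by detection of the 7 genes and all came from KO, so any fall in those 7 genes follows from the choice. Thbs1 and Emilin2 then had log2 ratios of -0.07 and -1.29, from 3 and 1 UMIs in KO and 1 UMI each in WT. Lyz2, the lysozyme gene, had 6 UMIs in KO and 2 UMIs in WT, a log2 ratio of 0.09 in place of 2.35. The log2 ratio of Ltbp1 was 1.03 (-0.07 to 2.52), that of Plxdc2 1.17 (0.45 to 2.04) and that of Grk5 0.69 (-0.16 to 1.73). Cd44 had 54 UMIs in KO and 2 UMIs in WT (log2 ratio 3.15, 1.54 to 6.54). Fn1 retained 21 UMIs in KO nuclei against 0 in WT, at least 2.86-fold higher.

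The monocyte and recruitment genes were the list with the highest median. The list median was a log2 ratio of 1.89, against 0.17 over all genes. Over all genes 15.8% were past 2-fold higher in KO and 7.45% past 2-fold lower. Of the 8 list members with at least 10 UMIs, 6 were past 2-fold higher and 0 past 2-fold lower. The 6 were Fn1, Cd44, Emilin2, Thbs1, Itga4 and Nr4a1. Itga4, an integrin of blood leukocytes, had 74 UMIs in KO and 11 UMIs in WT (log2 ratio 1.22, 0.35 to 2.34), and Emilin2 and Thbs1 had 25 and 24 UMIs in KO and 1 UMI each in WT. Outside the macrophages some of these genes were higher in KO too: Nr4a1 stood at 341 CPM in KO and 141 CPM in WT, Itga4 at 108 CPM in KO and 48.5 CPM in WT, and Thbs1 at 9.78 CPM in KO and 1.45 CPM in WT. Nr4a1, at 152 CPM in KO and 68.0 CPM in WT macrophage nuclei, was below its level in the other nuclei of both libraries. The whole list summed to 2078 CPM in KO and 802 CPM in WT. Without the 16 nuclei the median was 1.10 over 6 measured members, and over the same 8 members it was 0.51. Fn1, Emilin2 and Thbs1 are among the genes that chose the 16, so part of this fall follows from the choice. Members known from circulating monocytes of the mouse were scarce: Ccr2 had 7 UMIs in KO and 1 UMI in WT, Ly6c2 had 1 and 0 UMIs in KO and WT, and Vcan had 0 and 2 UMIs.

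Core identity genes had a median of 0.39, against 0.17 over all genes. Of 31 measured members, 10 were past 2-fold higher in KO and 2 past 2-fold lower, against 15.8% and 7.45% of all genes. Without the 16 nuclei, 5 of the same 31 were past 2-fold higher and 3 past 2-fold lower, a share near that of all genes. Dock2, a guanine exchange factor needed for leukocyte migration, had 245 UMIs in KO and 43 UMIs in WT, 1198 and 584 CPM (log2 ratio 1.02, 0.56 to 1.54). It was detected in 64.2% of KO and 38.0% of WT macrophage nuclei, and in 46.0% and 15.1% of KO and WT after thinning. Lyn, a Src-family kinase, had 162 UMIs in KO and 21 in WT (log2 ratio 1.44, 0.81 to 2.20), and Cybb, the catalytic subunit of the phagocyte oxidase, had 21 in KO and 1 in WT (2.37, 0.28 to 8.29). Itgam, the CD11b integrin, had 12 UMIs in KO and 0 in WT, too few to separate the libraries by their interval. Pid1 was nearly level, with 3134 CPM in KO and 3017 CPM in WT. Frmd4b, at 983 CPM in KO and 1577 CPM in WT, and the transporter gene Slco2b1, at 108 and 258 CPM in KO and WT, were lower. Among Y-marked nuclei alone the median of this list was -0.06.

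Resident scavenger and growth factor genes had medians below that of all genes, with members on both sides. None of 13 measured scavenger genes was past 2-fold higher in KO and 3 were past 2-fold lower, with a median of -0.41. Over all genes 15.8% were past 2-fold higher and 7.45% past 2-fold lower. The scavenger receptor Colec12 had 36 UMIs in KO and 29 UMIs in WT, 176 and 394 CPM (log2 ratio -1.17, -1.91 to -0.41), but its direction reversed in Y-marked nuclei, at 0.84. Msr1, another scavenger receptor gene, stood at 191 CPM in KO and 109 CPM in WT (log2 ratio 0.74, -0.31 to 2.12), with 26 of its 39 KO UMIs in the 16 nuclei and 72.1 CPM in KO without them. The growth factor receptor gene Fgfr1 stood at 362 CPM in KO and 272 CPM in WT (0.39, -0.32 to 1.20). Lyve1, Timd4 and Folr2, markers of a resident subset in several mouse tissues, had 5 UMIs or fewer in either library. Of 12 measured growth factor and matrix genes, 1 was past 2-fold higher and 2 past 2-fold lower, with a median of -0.56. Pdgfc, a growth factor for fibroblasts, had 13 UMIs in KO and 25 UMIs in WT, 63.6 and 340 CPM (log2 ratio -2.39, -3.51 to -1.40). Tgfbi, a TGF-beta-induced matrix protein gene, had 97.8 CPM in KO and 258 CPM in WT (log2 ratio -1.40), though after thinning its ratio was 0.02. Igf1, which supports fibre growth, had 161 CPM in KO and 190 CPM in WT macrophage nuclei, against 119 and 14.8 CPM in the other nuclei of KO and WT.

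**Figure D5:**
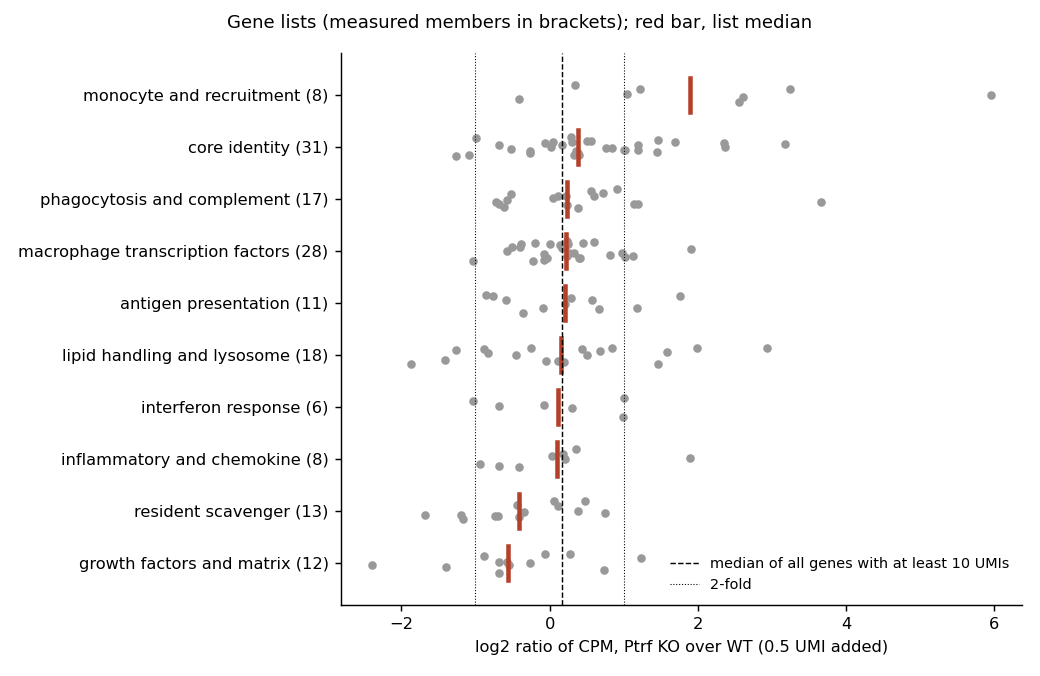
Log2 ratio of CPM, KO over WT, in macrophage nuclei (x axis, 0.5 UMI added) for each measured member of 10 gene lists (y axis). Red bars are list medians, the dashed line is the median of all genes with at least 10 UMIs (0.17) and dotted lines mark 2-fold; monocyte and recruitment genes have the highest median (1.89) and growth factors and matrix genes the lowest (-0.56).

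The 12 genes ranked lowest in KO included receptors, signalling ligands and regulators. Beside Cd163 and Pdgfc, Nrg2, a neuregulin ligand, had 38 UMIs in KO and 39 UMIs in WT, 186 and 530 CPM (log2 ratio -1.51, -2.20 to -0.83). Aff3, a nuclear elongation factor, had 332 CPM in KO and 856 CPM in WT (log2 ratio -1.37), and Rgl1, a Ral exchange factor, had 249 and 693 CPM in KO and WT (-1.48). The RNA-binding protein gene Celf4 had 11 UMIs in KO and 18 UMIs in WT (-2.16). Celf4 was also lower in the other nuclei, at 2.52 CPM in KO and 16.1 CPM in WT (-2.66). Nrg2 was lower there too, at 3.41 and 6.20 CPM in KO and WT, whereas Pdgfc was higher, at 41.1 and 27.1 CPM. Fkbp5, a glucocorticoid-responsive chaperone gene, had 152 CPM in KO and 394 CPM in WT macrophage nuclei, and it was also lower in the other nuclei, at 50.4 CPM in KO and 183 CPM in WT. All 12 kept their direction under every other selection except the comparisons by sex-linked transcripts, where Arhgap22 reversed among Y-marked nuclei (log2 ratio 1.41, from 3 UMIs in KO and 0 in WT). Against Y-marked WT nuclei, Xist-marked KO nuclei reversed Arhgap22, Rgl1 and Specc1.

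Lipid handling genes lay on both sides. Of 18 measured members 4 were past 2-fold higher in KO and 3 past 2-fold lower, with a median of 0.15. Over all genes the shares were 15.8% higher and 7.45% lower. Apoe was highest. Cd36, the fatty acid and oxidised lipoprotein receptor, had 235 CPM in KO and 625 CPM in WT (log2 ratio -1.41, -2.03 to -0.80). In all other nuclei Cd36 stood at 440 CPM in KO and 419 CPM in WT, and 1 WT macrophage nucleus held 17 of its 46 UMIs. Its level is therefore not separated from background. Pla2g7, which cleaves oxidised phospholipids, had 9 UMIs in KO and 12 UMIs in WT (-1.87, -3.32 to -0.52). It was also lower in the other nuclei, at 17.1 CPM in KO and 47.7 CPM in WT. Abca1, a cholesterol exporter, had 401 CPM in KO and 544 CPM in WT, and Psap, a lysosomal activator, 191 and 136 CPM in KO and WT, and both intervals included 0. Trem2 had 0 UMIs in both libraries, and Gpnmb and Spp1 had 1 UMI each in KO and 0 in WT, so a lipid-associated macrophage programme of that kind was not detectable at this depth.

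Phagocytosis and complement genes gave 3 of 17 past 2-fold higher, 0 past 2-fold lower and a median of 0.24. All genes gave 15.8% higher and 7.45% lower. Sirpa, the receptor for the CD47 signal, had 47 UMIs in KO and 7 UMIs in WT (log2 ratio 1.19, 0.12 to 2.66). Mertk, a receptor for apoptotic cells, had 205 CPM in KO and 313 CPM in WT, and Elmo1, an engulfment adaptor, 626 CPM in KO and 530 CPM in WT. The intervals of both included 0. Of 11 antigen presentation genes, 2 were past 2-fold higher, with a median of 0.21. H2-Aa, a class II chain, had 23 UMIs in KO and 2 UMIs in WT (log2 ratio 1.76, 0.03 to 5.18), whereas Ciita, the class II transactivator, had 88.0 CPM in KO and 109 CPM in WT.

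Inflammatory and interferon genes were close to the median of all genes. Of 8 measured inflammatory genes 1 was past 2-fold higher in KO and 0 past 2-fold lower, with a median of 0.10. The shares over all genes were 15.8% higher and 7.45% lower. Il6ra had 254 CPM in KO and 245 CPM in WT, and Nfkb1 had 220 CPM in KO and 190 CPM in WT. Rel, an NF-kappaB subunit, had 15 UMIs in KO and 1 UMI in WT, with an interval that included 0. Of 6 measured interferon genes, 1 was past 2-fold higher and 1 past 2-fold lower, with a median of 0.11. Trim30a had 41 UMIs in KO and 7 UMIs in WT (log2 ratio 0.99, -0.10 to 2.48), and Oas2 had 11 in KO and 8 in WT (-1.04, -2.46 to 0.50). Iigp1, an interferon-induced GTPase gene, had 3 UMIs in KO and 1 in WT macrophage nuclei, while in the other nuclei it stood at 42.5 CPM in KO and 1.76 CPM in WT.

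Among macrophage transcription factors, 3 of 28 were past 2-fold higher and 1 past 2-fold lower, with a median of 0.23. Among all genes the shares were 15.8% and 7.45%. Zeb2, which maintains tissue macrophage identity in mice, had 3046 CPM in KO and 3547 CPM in WT, and Rbpj had 3149 CPM in KO and 4472 CPM in WT (log2 ratio -0.51, -0.70 to -0.31). Ikzf1, a lymphoid and myeloid regulator, had 36 UMIs in KO and 3 UMIs in WT (1.91, 0.45 to 4.45). Foxp1 was at 1095 CPM in KO and 911 CPM in WT. Mef2c was higher in KO, at 2049 CPM against 938 CPM in WT, but it was detected in 96.4% of KO and 60.3% of WT muscle nuclei, above its shares of 54.0% and 35.2% in KO and WT macrophage nuclei, so its level is not separated from background.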

How the data were processed

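The deposited matrices hold raw UMI counts. Cell Ranger 6.0.0 wrote them, per the file headers. STAR, Seurat 4.1.1, mm10 and GRCm38 are further names in the submitters' processing notes. The annotation, the use of introns and strand and the calling of nuclei: not given in the sources used here. Nuclei were isolated in detergent buffer and captured in droplets, per the labels' protocols.

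Counts were summed over the macrophage nuclei of each library with Python 3.11.15, numpy 2.4.6, scipy 1.17.1, pandas 2.3.3 and matplotlib 3.10.9, scaled to CPM and compared as log2 ratios with 0.5 UMI added. Sums carry exact Poisson, shares Clopper-Pearson and ratios conditional binomial intervals at 95%. The ratio intervals were checked on simulated independent Poisson sums, which could not test UMIs clustered in single nuclei. Such clustering occurred: 1 KO nucleus held 50 of the 176 Ltbp1 UMIs, and 1 held 21 of the 86 Fn1 UMIs. The intervals do not cover it. Only for folds given as at least a value was a gene at 0 UMIs in 1 library set to a floor of 3 UMIs over that library. Log2 ratios, counts past 2-fold and list medians kept the 0.5 UMI. No doublet caller was used, so doublets stayed in; 1 KO and 3 WT macrophage nuclei lay above the 99th percentile of UMIs of their library. Muscle nuclei are those with at least 5% of UMIs in 12 myonuclear markers that were not macrophage or fibro-adipogenic nuclei. Overlaps were read from GENCODE M21, which held 52147 of 53700 features by ID.

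The text names the rule genes, the 5 most abundant members of each list and members with at least 20 UMIs whose interval excluded 0, 20 leading genes, and 12 genes ranked highest and 12 lowest in KO. Predicted, mitochondrial, ribosomal, haemoglobin and sex-linked genes and Cavin1 were left out of rankings. Others, such as Bank1, Spi1, Ccr2, Ly6c2, Vcan, Gata6, Trem2, Iigp1, Itga6 and the set of 7, were chosen after their values were seen. Members and lists were chosen with earlier results of these data known. Alternatives varied depth, filters, the rule, sex-linked transcripts, scaling and UMI minimums.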

Additional observations from a re-analysis of the deposited data

How the results depend on the processing

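The KO share exceeded the WT share under every selection tried, and its difference of 1.07 percentage points was 0.562 with at least 500 genes, 0.387 with F13a1 and Mrc1 left out of the rule, 0.439 among Y-marked nuclei and 1.86 for Xist-marked KO against Y-marked WT nuclei. The 465 genes past 2-fold became 152 after thinning, 244 without F13a1 and Mrc1, 231 among Y-marked nuclei, 177 for Xist-marked KO against Y-marked WT nuclei, and 1060 at a minimum of 10 UMIs. Among list medians, core identity reversed to -0.064 in Y-marked nuclei, where phagocytosis and complement was -0.63 and growth factors and matrix -1.17. Interferon response was 1.43 after thinning and 1.01 for Xist-marked KO against Y-marked WT nuclei. Antigen presentation was 1.23 without F13a1 and Mrc1 and 1.24 for Xist-marked KO against Y-marked WT nuclei. Macrophage transcription factors were at 0.43 after thinning, -0.14 with at least 3 marker UMIs, -0.16 without F13a1 and Mrc1 and 0.41 for Xist-marked KO against Y-marked WT nuclei. Of single genes, C1qb reversed to 0.21 and Tgfbi to 0.023 after thinning, and Nampt to -1.57 without F13a1 and Mrc1. Emilin2 was -1.29 and Thbs1 -0.070 without the 16 nuclei, which follows from the choice of those nuclei by these genes. In Y-marked nuclei Arhgap22 reversed to 1.41 and Colec12 to 0.84; for Xist-marked KO against Y-marked WT nuclei these were 0.76 and 0.065, Rgl1 was 0.13 and Specc1 0.55. The causes were not tested; thinning, Y-marked and Xist-marked nuclei leave fewer UMIs. The 12 genes ranked highest in KO stayed above 0 in all 14 alternatives in which they were computed. No paired analysis was possible because each genotype has 1 library, so no replicate could be left out either. With 73574 UMIs over the WT macrophage nuclei, 3 UMIs stand for 40.8 CPM, and lower levels there cannot be resolved.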

Other observations

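The ligands of Csf1r were scarce in macrophage nuclei, at counts too low for a contrast with other nuclei. Csf1 had 2 UMIs in KO and 2 UMIs in WT macrophage nuclei and 5.93 CPM in KO and 5.38 CPM in WT over all other nuclei; in fibro-adipogenic nuclei it stood at 45.7 CPM in KO (26 UMIs) and 55.4 CPM in WT (8 UMIs). Il34 had 2 UMIs in KO and 1 UMI in WT macrophage nuclei, 11.6 CPM in KO and 13.7 CPM in WT over all other nuclei, and 36.9 CPM in KO and 62.3 CPM in WT fibro-adipogenic nuclei. Ccl2, the ligand of Ccr2, had 0 UMIs in the macrophage nuclei of both libraries. Gas6, a bridge between apoptotic cells and Mertk, had 11 UMIs in KO and 9 UMIs in WT macrophage nuclei, with 36.9 CPM in KO and 41.6 CPM in WT fibro-adipogenic nuclei.

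Cell cycle transcripts were scarce in the class. The list of 21 genes summed to 28 UMIs in KO (137 CPM) and 7 UMIs in WT (95.1 CPM), no member reached 10 UMIs, and Mki67 had 1 UMI in KO and 0 in WT. Of the 28 KO UMIs, 18 lay in 1 nucleus, whereas no WT nucleus held more than 1. The caveolin gene Cav1, whose protein forms caveolae with Cavin1, had 6 UMIs in KO and 0 UMIs in WT macrophage nuclei, and 119 CPM in KO and 18.4 CPM in WT over all other nuclei. Cav1 was nearly level in muscle nuclei, at 6.67 CPM in KO and 7.19 CPM in WT. In fibro-adipogenic nuclei it stood at 119 CPM in KO (68 UMIs) and 20.8 CPM in WT (3 UMIs). Ednrb, an endothelin receptor gene among the leading genes, had 17 UMIs in the 16 KO nuclei rich in the set of 7 genes, 13 UMIs in the other 121 KO nuclei and 10 UMIs in WT.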
